A study of Arabidopsis thaliana with 9 samples.

Results

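HSFA9 is the heat stress transcription factor of Arabidopsis seeds, and 8 genes of heat shock proteins that accumulate in seeds or answer to heat are described with it. The 9 genes were chosen by name from the 30361 genes of a NimbleGen expression array, with earlier results of these data known. They comprise HSFA9 (AT5G54070), the class II small heat shock proteins HSP17.6A (AT5G12030) and HSP17.6II (AT5G12020), the class I small heat shock proteins HSP17.4 (AT3G46230), HSP17.8 (AT1G07400), HSP17.6C (AT1G53540) and HSP18.2 (AT5G59720), the chloroplast protein HSP21 (AT4G27670) and the disaggregase HSP101 (AT1G74310). All 9 were on the array, each with 2 probes, and none was removed by a filter.

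RNA came from whole seedlings grown for 12 days on MS agar plates at 22 °C with 16 h of light, so that no heat treatment was part of the design. Wildtype was the ecotype Col. The clf swn double mutant lacks the histone methyltransferases CURLY LEAF and SWINGER of the Polycomb complex PRC2, and because it is sterile it was picked from the progeny of plants that were heterozygous for clf. Its alleles are written as clf-7 swn-28 in the labels and as swn-7 clf-28 where the methods describe the plants. The siFIE plants were T1 plants, the first generation after transformation, with an RNAi construct against FIE, a core subunit of PRC2. Only T1 plants of intermediate phenotype were used, and they were selected on kanamycin (50 mg/L), which is not named for the other genotypes. The labels give their ecotype as C24 and the methods as Col, so ecotype and selection cannot be told apart from the RNAi in any comparison with siFIE. Each genotype had 3 arrays, and each array held the RNA of 1 pool of 10 to 12 plants.

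Small heat shock proteins bind unfolding proteins and keep them from aggregating, and HSP101 pulls aggregated proteins apart together with HSP70. In vegetative tissue the transcripts of most of these genes stay low until heat releases the HSFA1 factors. In ripening seeds they are switched on without heat, through HSFA9, whose gene is activated by the seed maturation regulator ABI3. PRC2 places the mark H3K27me3 on many seed genes after germination, which is the background to asking whether the HSFA9 branch is transcribed in PRC2 mutant seedlings.

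The targeted genes followed the labels. FIE gave an RMA signal of 1843 ± 115 (SD, n = 3) in Col and 282 ± 38.3 in siFIE, 6.57-fold lower with an adjusted p of 1.4e-06 in limma. Under a second setting, in which the probe signals were quantile-normalized and averaged per gene with no background correction, in place of the deposited RMA signals, FIE in siFIE was 0.580 times Col (adjusted p = 2.6e-04) and missed the 2-fold threshold. This setting is meant wherever values without background correction are given. The study also measured FIE mRNA in siFIE plants by RT-qPCR and found it far below that of wildtype Col. SWN was 56.5-fold and CLF 2.90-fold lower in clf swn than in Col, with adjusted p-values of 9.5e-07 and 6.6e-06, and both were called under either setting. FIE was 1.81-fold higher in clf swn than in Col by RMA signal (adjusted p = 3.6e-04 in limma), under the 2-fold threshold. The RMA signal is a normalized brightness per gene on a linear scale, which can be compared between arrays but not between genes. Its median was 1116 to 1169 on the 9 arrays, and arrays of a genotype correlated across genes, which are no independent replicates, with Pearson's r of 0.991 to 0.994. Precision is limited by having only 3 arrays a genotype. The photosynthesis genes used as green seedling markers had a summed RMA signal of 276585.0 to 286920.4 over 8 genes in Col and of 111679.5 to 115777.8 in clf swn. Such a sum is weighted toward the genes with the highest values. Single genes in clf swn ranged from 0.760 times Col for RBCS1A to 0.0038 times for CA1.

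HSFA9 was dim in Col and siFIE and brighter in every clf swn pool. Its RMA signal was 54.1, 50.4 and 44.3 in Col, 41.0, 64.6 and 50.7 in siFIE and 170.4, 241 and 320.2 in clf swn. The lowest clf swn pool thus lay above the highest of the other 6, and the siFIE pools overlapped those of Col. The rise from 49.6 ± 4.96 (SD, n = 3) in Col to 244 ± 75.0 in clf swn was 4.77-fold (log2 2.25, SE 0.24, adjusted p = 4.5e-05 in limma). In siFIE the mean was 52.1 ± 11.8, and the log2 difference from Col was 0.05 with a 95% interval of -0.49 to 0.59 and an adjusted p of 0.91. The difference between the mutants was itself past the threshold (log2 2.204, adjusted p = 7.2e-05). In RNA of whole seedlings, more cells with a transcript and more transcript per cell cannot be told apart.

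The 2 probes of HSFA9 behaved differently. The probe at transcript position 938 gave scanner signals, which are not normalized, of 262, 291 and 292 in Col, 298, 417 and 254 in siFIE and 849, 851 and 925 in clf swn. The probe at position 81 gave 355, 477 and 324 in Col, 315, 366 and 404 in siFIE and 299, 349 and 354 in clf swn. Only the probe nearer the 3′ end separated clf swn from the other genotypes. After quantile normalization without background correction it was 3.54-fold brighter in clf swn than in Col, against 0.986-fold for the other probe. The probe at position 938 was below the 25th percentile of its array on all 6 Col and siFIE arrays and on 0 of the 3 clf swn arrays. When both probes were averaged without background correction, HSFA9 was 1.87-fold higher in clf swn and missed the 2-fold threshold, although its adjusted p was 1.9e-06 in limma. With the probe signals corrected by normexp, a model of background, and then quantile-normalized, its log2 difference was 1.32. The size of the fold therefore depends on how the probe signals are processed, and its direction rests on 1 probe.

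**Figure D1:**
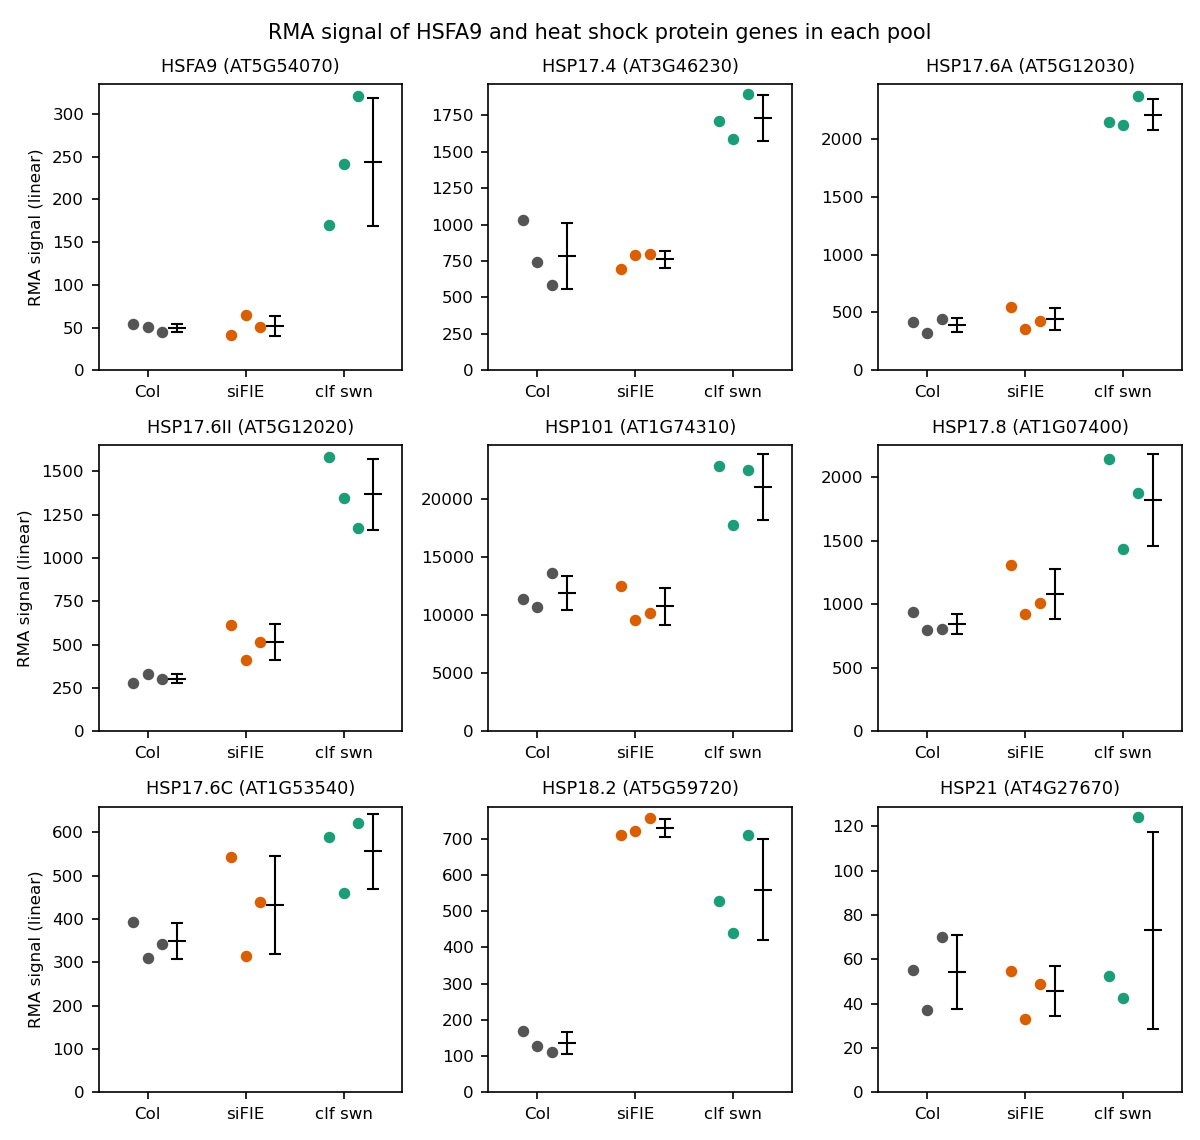
RMA signal (vertical axis, linear scale from 0) of the 9 genes in the 3 pools of Col, siFIE and clf swn; points are single pools and bars the mean ± SD (n = 3). The clf swn pools of HSFA9 lie at 170.4 to 320.2, above all Col and siFIE pools, whereas HSP18.2 is raised in both mutants.

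Both class II small heat shock proteins, which work in the cytosol, rose more than 4-fold in clf swn. HSP17.6A had an RMA signal of 416, 325 and 442 in Col, 548, 353 and 429 in siFIE and 2145, 2115 and 2366 in clf swn. The clf swn pools were close together and far above the rest, and the siFIE pools overlapped Col. The mean of 394 ± 61.5 (SD, n = 3) in Col became 2209 ± 137 in clf swn, a 5.64-fold rise (log2 2.50, SE 0.18, adjusted p = 3.2e-06 in limma). The siFIE mean was 443 ± 97.9, 1.12 times that of Col with a 95% interval of 0.843 to 1.48 (adjusted p = 0.60). Both probes rose alike in clf swn, 3.59-fold and 3.74-fold without background correction, but they start at positions 185 and 194 and share 51 of their 60 bases, so they are close to 1 measurement.

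HSP17.6II, the other class II gene, had an RMA signal of 278, 333 and 302 in Col, 616, 409.6 and 514 in siFIE and 1583, 1344 and 1173 in clf swn. Here the siFIE pools stood between those of the other genotypes without overlap on either side. The clf swn mean of 1367 ± 206 (SD, n = 3) was 4.47-fold that of Col, 304 ± 27.4 (log2 2.16, SE 0.17, adjusted p = 6.9e-06 in limma). The siFIE mean of 513 ± 103 was 1.67-fold that of Col (adjusted p = 0.015), past the p threshold but under 2-fold. The difference between the mutants was 1.42 on the log2 scale (adjusted p = 1.6e-04). The probes at positions 197 and 259, which do not overlap, were 2.34-fold and 3.36-fold brighter in clf swn without background correction.

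HSP17.6A and HSP17.6II are direct neighbours on the chromosome, with 0 annotated genes between them in TAIR10.1. Without background correction they were still 3.66-fold and 2.80-fold higher in clf swn than in Col, and they were the only members called in that comparison under that setting. The class II genes are close in sequence, as are the class I genes, and signal shared between near-identical copies could not be measured from these files, so the split of signal between the members of a class is uncertain.

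Of the class I small heat shock proteins of the cytosol, HSP17.4 is the one best known from seeds, where its amount follows ABI3. Its RMA signal was 1029, 742 and 584 in Col, 695, 791 and 799 in siFIE and 1712, 1587 and 1894 in clf swn. All clf swn pools were above all others, and the Col pools spread around those of siFIE. The mean rose from 785 ± 226 (SD, n = 3) to 1731 ± 154, 2.26-fold (log2 1.18, SE 0.19, adjusted p = 7.8e-04 in limma). In siFIE it was 761 ± 57.9, a log2 difference of -0.01 with an interval of -0.44 to 0.42 (adjusted p = 0.98), and the mutants differed by 1.18 (adjusted p = 9.2e-04). This gene was close to the 2-fold threshold. It missed it under all 3 settings computed from probe signals, at 1.53-fold without background correction, and without the third Col pool, at a log2 difference of 0.98. Its probe at position 1 was below the 25th percentile on 2 Col and 3 siFIE arrays and was 1.48-fold brighter in clf swn, and its bright probe at position 877 was 1.59-fold brighter.

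HSP17.8, which in Arabidopsis also helps carry membrane proteins to chloroplasts, had an RMA signal of 939.9, 797 and 804 in Col, 1306, 926 and 1011 in siFIE and 2146, 1435 and 1879 in clf swn. The clf swn pools did not overlap the others, and the siFIE pools overlapped Col. The clf swn mean of 1820 ± 359 (SD, n = 3) was 2.13-fold that of Col, 847 ± 80.7 (adjusted p = 9.1e-04 in limma). The siFIE mean of 1081 ± 199 was 1.27 times that of Col, with an interval of 0.952 to 1.68 (adjusted p = 0.24). The mutants differed by 0.75 on the log2 scale (adjusted p = 0.009). The call in clf swn was lost under all 3 settings computed from probe signals, at 1.72-fold without background correction, and without the first clf swn pool, at a log2 difference of 0.96.

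HSP17.6C changed less. Its RMA signal was 394, 311 and 343 in Col, 542, 315 and 440.5 in siFIE and 588, 459 and 623 in clf swn. The clf swn pools were all above Col, but the lowest of them was below the highest siFIE pool. The difference of clf swn from Col was 1.59-fold (log2 0.67, SE 0.21, adjusted p = 0.025 in limma), under the fold threshold. That of siFIE was 1.21-fold (adjusted p = 0.41), and the mutants differed by 0.39 on the log2 scale with an interval of -0.08 to 0.86 (adjusted p = 0.17). Its probes share 53 of 60 bases.

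HSP18.2, a class I gene known for its strong induction by heat, was raised in both mutants. Its RMA signal was 169, 129 and 111 in Col, 711, 722 and 757 in siFIE and 528, 439 and 712 in clf swn. All 6 mutant pools were above all Col pools, and the siFIE pools were nearly equal, whereas those of clf swn spread from below to within the siFIE range. The mean rose from 136 ± 29.9 (SD, n = 3) in Col to 729.6 ± 24.0 in siFIE, 5.44-fold (log2 2.44, SE 0.20, adjusted p = 4.6e-05 in limma). In clf swn it was 559.6 ± 139, 4.09-fold that of Col (log2 2.03, adjusted p = 2.8e-05). The log2 difference of clf swn from siFIE was -0.41 with an interval of -0.86 to 0.04 (adjusted p = 0.13), which leaves their order unsettled. Both mutants were compared with the same Col arrays. Of all genes, 2.39% were called higher in both mutants, and HSP18.2 was the 1 member among them. Without background correction it was 2.42-fold higher in siFIE, still called, and 2.00-fold higher in clf swn, just under the threshold. Its probes at positions 77 and 144 moved together, 2.31-fold and 2.53-fold in siFIE and 1.95-fold and 2.05-fold in clf swn.

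HSP101, needed for acquired thermotolerance and abundant in dry seeds, gave an RMA signal of 11378, 10734 and 13598 in Col, 12539, 9574 and 10157 in siFIE and 22827, 17769.6 and 22490.4 in clf swn. The clf swn pools were all above the others, and siFIE overlapped Col. The clf swn mean of 21029 ± 2828 (SD, n = 3) was 1.76-fold that of Col, 11903 ± 1503 (log2 0.82, SE 0.16, adjusted p = 0.0021 in limma), under the 2-fold threshold. The siFIE mean was 10756 ± 1571, 0.902 times that of Col with an interval of 0.705 to 1.15 (adjusted p = 0.57). The mutants differed by 0.97 on the log2 scale (adjusted p = 9.5e-04). The log2 difference of this bright gene from Col in clf swn was 0.80 without background correction, and its probes were 1.90-fold and 1.59-fold brighter.

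HSP21, the small heat shock protein of the chloroplast, was near the floor of the array. Its RMA signal was 55.2, 37.3 and 70.3 in Col, 54.9, 33.1 and 49.1 in siFIE and 52.3, 42.6 and 124 in clf swn. Apart from 1 clf swn pool the 3 genotypes overlapped. Its probe at position 361 was below the 25th percentile on all 9 arrays. The log2 difference of clf swn from Col was 0.31 with an interval of -0.58 to 1.20 (adjusted p = 0.56 in limma), and that of siFIE -0.23 (adjusted p = 0.74). Without the third clf swn pool the first of these was -0.15.

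**Figure D2:**
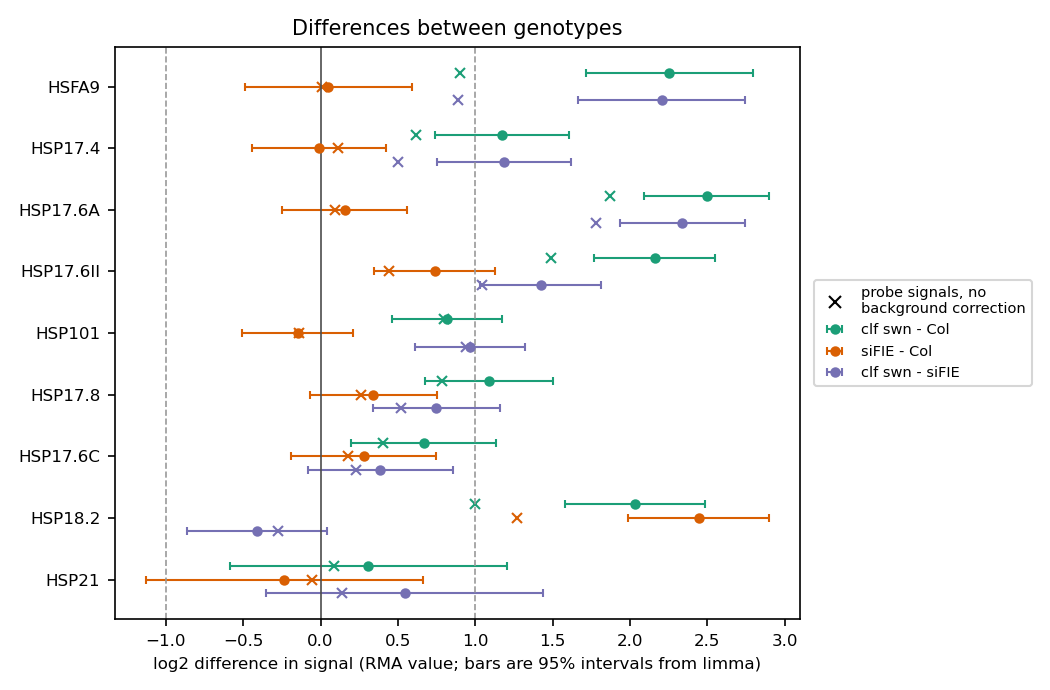
Differences on the log2 scale (horizontal axis) between genotypes for each gene, with 95% intervals from limma on RMA signals (points and bars) and the same difference computed from probe signals without background correction (crosses); dashed lines mark 2-fold. HSFA9 in clf swn is at 2.25 from RMA and at 0.90 from probe signals, and HSP101 at 0.82 and 0.80.

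A gene was called when its adjusted p was under 0.05 and its change over 2-fold. By this rule 6 of 9 members were called higher in clf swn than in Col, where 8.78% of all genes were, namely HSFA9, HSP17.4, HSP17.6A, HSP17.6II, HSP17.8 and HSP18.2. In siFIE 1 of 9 was called, HSP18.2, where 4.51% of all genes were. In clf swn against siFIE 4 of 9 were called higher, HSFA9, HSP17.4, HSP17.6A and HSP17.6II, where 6.82% of all genes were. No member was called lower, a call given to 12.8% of all genes in clf swn, to 3.19% in siFIE and to 11.0% in clf swn against siFIE, and none had an unadjusted p under 0.05 in that direction in limma. The fold threshold set part of this count, since by adjusted p alone 8 of 9 members were higher in clf swn (24.2% of all genes), 2 in siFIE (10.2%) and 6 in clf swn against siFIE (20.9%). Every clf swn pool was above every Col pool for 8 of 9 members (30.0% of all genes), every siFIE pool above every Col pool for 2 of 9 (18.4%), and every clf swn pool above every siFIE pool for 6 of 9 (27.9%). The median log2 difference of the members was 1.18 in clf swn and 0.16 in siFIE, beside 0.05 and -0.02 over all genes.

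From probe signals with normexp and quantile normalization, 4 of 9 members were called higher in clf swn, 1 in siFIE and 3 in clf swn against siFIE. Without background correction 2 of 9 members were called in clf swn (5.15% of all genes), 1 in siFIE (2.22%) and 2 in clf swn against siFIE (3.84%), all of them higher. None was called lower, where 7.72%, 1.45% and 6.09% of all genes were. The direction of the 6 called members in clf swn was the same in every alternative that gave a value.

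**Figure D3:**
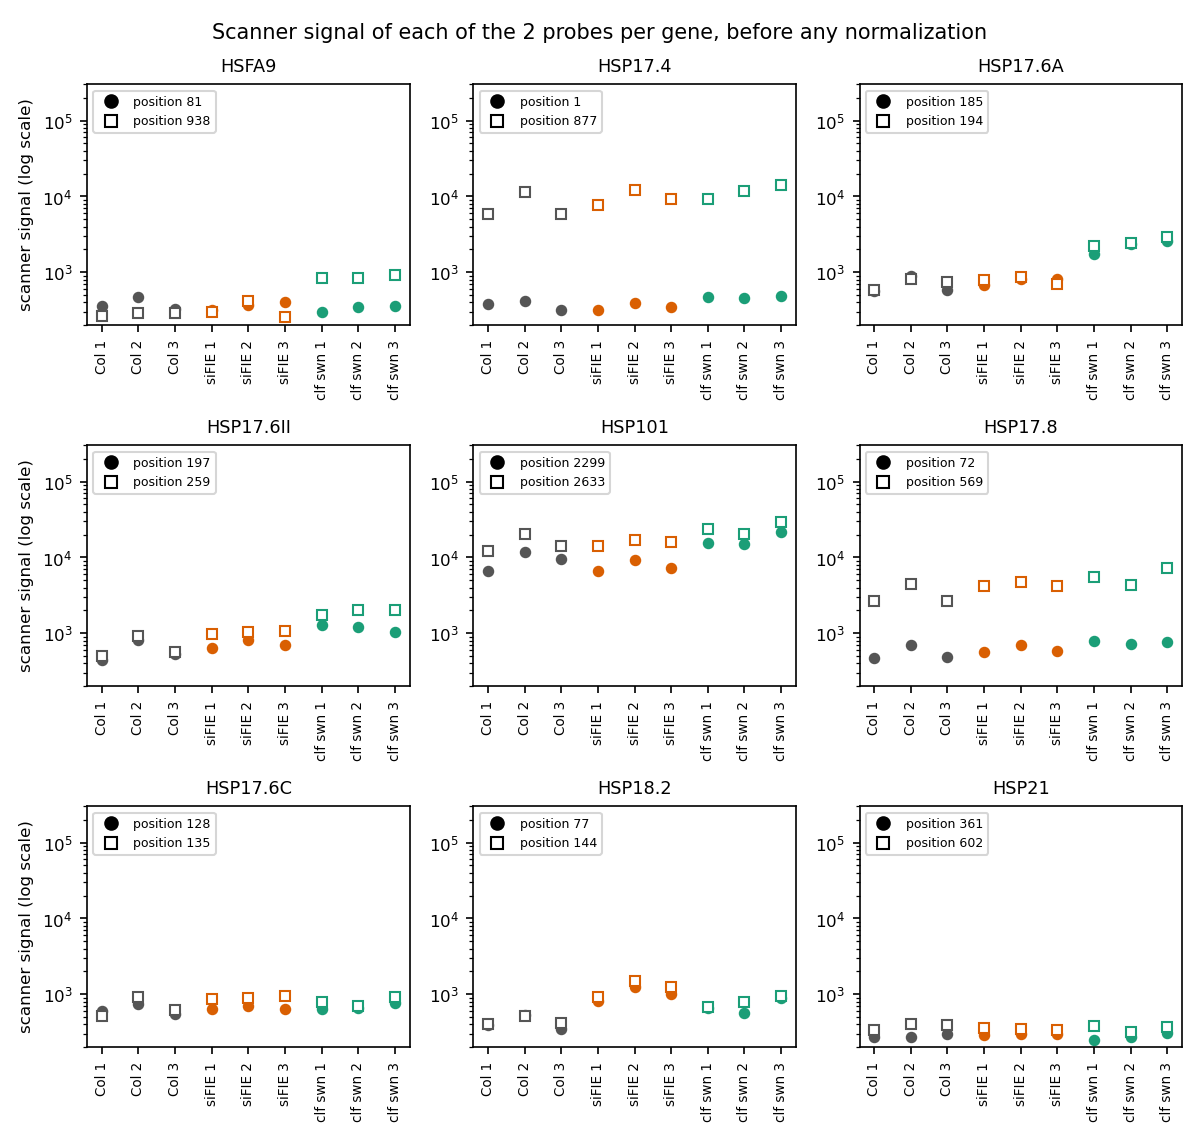
Scanner signal (vertical axis, log scale, not normalized) of each of the 2 probes per gene on the 9 arrays, filled circles for the probe nearer the 5′ end and open squares for the other. In clf swn the open squares of HSFA9 lie at 849 to 925 while its filled circles stay at 299 to 354, and the probes of HSP18.2 move together.

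The order of the pools within a genotype was counted over the 8 heat shock protein genes, as a description chosen after the values were seen. Of the 8 genes, the first siFIE pool had the highest siFIE value in 6 and the second the lowest in 6. Among the clf swn pools the second was lowest in 7, and the third was highest in 5 and the first in the other 3. In Col the second pool was lowest in 5 and the first highest in 4. HSFA2, a factor that sustains the heat response, had an RMA signal of 1578, 1127 and 1256 in Col, 1531, 984 and 993 in siFIE and 3129.6, 1471 and 1464 in clf swn, so that the first pool was the highest of each genotype. The heat-responsive coactivator MBF1C was at 5560, 6799 and 5605 in the Col pools, where the first was the lowest. It was at 5049 in the first siFIE pool and 2276 and 2113 in the others, and at 7161, 3317 and 3521 in the clf swn pools. All siFIE pools of MBF1C lay below all Col pools (log2 -1.04, adjusted p = 0.082 in limma). Neither HSFA2 nor MBF1C was called in clf swn or siFIE against Col. The part of growth or harvest conditions in these differences between pools was not tested.

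Most other genes of the heat response were not called in either mutant, and neither were most genes on the array. Of all genes, 8.78% were called higher and 12.8% lower in clf swn, and 4.51% higher and 3.19% lower in siFIE. These shares are the background to the counts of each list that follows. Of 20 other heat stress transcription factors, 2 rose and 1 fell in clf swn, and their median log2 difference was 0.23. The 2 that rose were HSFA6B, linked to abscisic acid and drought, from 174 ± 49.8 to 1829.6 ± 448 (SD, n = 3; log2 3.40, adjusted p = 2.2e-05 in limma), and HSFA1E, of the class that starts the heat response, from 228 ± 43.8 to 1126 ± 151 (log2 2.31, adjusted p = 3.4e-06). HSFC1 fell by 1.20 (adjusted p = 6.2e-04; 0.542 times Col and not called without background correction), and HSF A4A was 0.87 lower on the log2 scale, under the fold threshold (adjusted p = 0.0029). In siFIE HSFA6B (log2 1.61, adjusted p = 0.0072) and HSFA3, a target of DREB2A (log2 1.41, adjusted p = 6.2e-04), rose, and HSFA6A fell by 1.94 (adjusted p = 8.8e-05). None of the siFIE calls among these factors held without background correction. There HSFA3 was 2.00-fold higher, just under the threshold, HSFA6B 1.74-fold higher, and HSFA6A 0.660 times Col.

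Of 10 small heat shock protein genes outside the 9 members, 1 rose and 2 fell in clf swn, with a median log2 difference of 0.12. ATHSP22.0, of the endoplasmic reticulum, rose from 184 ± 23.0 to 721 ± 117 (SD, n = 3; log2 1.97, adjusted p = 2.1e-04 in limma). AT4G21870 fell by 1.92 (adjusted p = 5.4e-05) and AT2G19310 fell by 1.03 (adjusted p = 0.0048), both proteins of the same family. Under each of the 3 settings computed from probe signals 1 gene of the list was called lower, and without background correction AT2G19310 was 0.524 times Col and not called. The mitochondrial HSP23.6-MITO was 1.83-fold higher, under the threshold (adjusted p = 0.0015). In siFIE AT2G29500, a class I gene, rose 2.30-fold (adjusted p = 3.1e-04), and in clf swn it was 1.95-fold higher (adjusted p = 3.3e-04), just under the threshold. Of the list it was the 1 gene called in siFIE.

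Of 15 genes of HSP70, HSP90 and HSP100 chaperones outside the members, 2 rose and 0 fell in clf swn, with a median log2 difference of 0.14. These were Hsp70-2, a cytosolic HSP70 (log2 1.79, adjusted p = 7.6e-06 in limma), and Hsp70b, a heat-inducible one (log2 1.06, adjusted p = 2.2e-04). HSP70 (AT3G12580), the main heat-inducible cytosolic form, was 1.66-fold higher (adjusted p = 0.0012), and CLPB4, the mitochondrial relative of HSP101, 1.43-fold (adjusted p = 0.0036), both under the threshold. None of the 15 was called in siFIE, where 2 of them had an adjusted p under 0.05 and less than 2-fold change in limma. Of 11 heat response genes outside the chaperone families, HSA32, which prolongs acquired thermotolerance, rose in both mutants (log2 1.85 and 1.05, adjusted p = 1.2e-06 in clf swn and 2.3e-04 in siFIE). Its siFIE value was 1.76-fold and not called without background correction. DREB2A, a drought and heat regulator, rose in clf swn (log2 2.71, adjusted p = 1.5e-05) and not in siFIE by this test (log2 0.43, adjusted p = 0.27). The immunophilin gene AT5G48570 was 0.62 times and GolS1, for galactinol synthesis, 0.684 times its Col signal in clf swn (adjusted p = 0.0084 and 0.013), both under the threshold.

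Regulators of seed maturation include ABI3, which acts above HSFA9. All 11 seed maturation regulators rose in clf swn, with a median log2 difference of 4.53 beside 0.05 over all genes. ABI3 had an RMA signal of 57.5 ± 21.2 (SD, n = 3) in Col, 536 ± 136 in siFIE and 37401 ± 2152 in clf swn. Its log2 difference from Col was 9.42 in clf swn (adjusted p = 1.1e-08 in limma) and 3.27 in siFIE (adjusted p = 5.6e-05). ABI4, an abscisic acid response factor, rose by log2 8.96 in clf swn and 3.35 in siFIE (adjusted p = 4e-10 and 9.6e-07). NF-YB6, a relative of LEC1, rose by log2 7.24 and the bZIP factor DPBF2 by 6.11 in clf swn (adjusted p = 3e-09 and 2.3e-08), whereas their siFIE values differed from Col by 0.17 and -0.28 (adjusted p = 0.55 and 0.41). In siFIE 4 of the 11 were called higher, ABI3, LEC2, ABI4 and ABI5, with a median of 0.17 over the list. Without background correction 3 of them were called, ABI3 at 2.14-fold, ABI4 at 2.02-fold and ABI5 at 2.29-fold, and LEC2 was 1.21-fold higher (adjusted p = 0.14). In siFIE ABI3 was called higher and HSFA9 was not, but the ABI3 signal there was 536 against 37401 in clf swn. The HSFA9 probe at position 938 was below the 25th percentile on all 3 siFIE arrays, so a small rise could have gone unseen. A link between the changes of these genes was not tested.

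**Figure D4:**
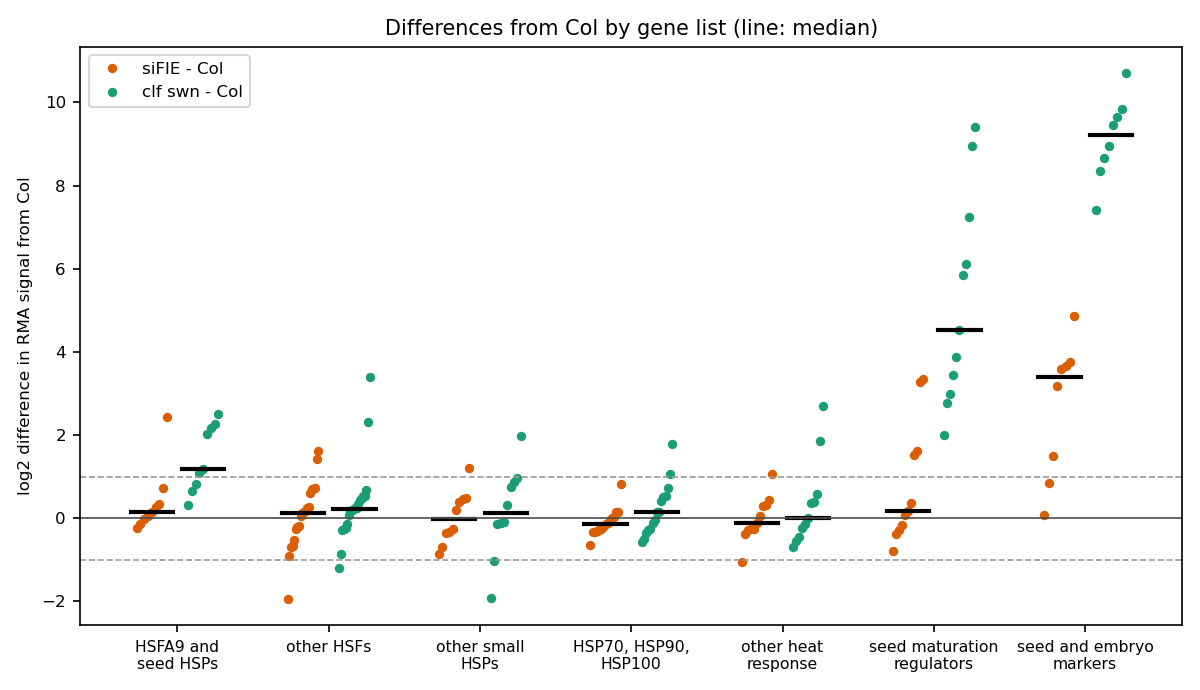
Differences from Col on the log2 scale (vertical axis) in RMA signal of each gene (points) by gene list, siFIE in orange and clf swn in green, with black lines for the median and dashed lines at 2-fold. The 9 members have a median of 1.18 in clf swn, the lists of other heat genes have medians of at most 0.23, and the seed maturation regulators have a median of 4.53.

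Markers of seeds and embryos moved in the same samples. All 8 storage protein, oleosin and late embryogenesis genes were called higher in clf swn and 6 of 8 in siFIE. Their summed RMA signal was 684.6 to 762.3 in Col, 4589.4 to 7623.4 in siFIE and 342764.3 to 368379.2 in clf swn. This sum is weighted toward the genes with the highest values, and OLEO1 had the same value of 63918.9 in all 3 clf swn pools. By adjusted p alone 7 of 8 were higher in siFIE (10.2% of all genes), among them the cruciferins CRU3, 29.2-fold, and CRA1, 12.1-fold. The exception was CRU2, also a cruciferin storage protein, at 27.8 ± 1.60 (SD, n = 3) in Col, 30.4 ± 10.6 in siFIE and 26052 ± 5859 in clf swn. Green seedling markers fell in clf swn for 6 of 8 genes and in siFIE for 2 of 8, and 7 of 7 floral organ markers rose in both. Of 6 reference genes 1 rose in clf swn, UBQ10 (log2 1.39, adjusted p = 1.6e-04 in limma; 1.73-fold and not called without background correction), and 0 in siFIE. The part of seed-like tissue in the members' changes was not tested.

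Over the 9 arrays the genes whose log2 RMA signals followed HSFA9 most closely, outside the members, were AT5G62210 (Pearson's r = 0.993), ATSYTF (0.993), AT5G10080 (0.991), AT5G03970 (0.991) and AT3G51410 (0.990). All were higher in clf swn than in Col, from 2.17-fold for AT5G03970 and ATSYTF to 12.5-fold for AT3G51410. Their siFIE signals were 0.994 to 1.13 times those of Col. Both traits follow from the choice of these genes, which were picked for tracking HSFA9 on these same arrays, so neither counts as a test. These correlations are a description, since the arrays of a genotype share their condition. Among the members r with HSFA9 was 0.946 for HSP17.4, 0.939 for HSP17.6A, 0.854 for HSP17.6II, 0.852 for HSP101, 0.803 for HSP17.8, 0.617 for HSP17.6C, 0.410 for HSP21 and 0.382 for HSP18.2. HSP17.4 ranked 874 among the 30360 other genes and HSP18.2 ranked 11497, so a high r with HSFA9 was common on this array.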

How the data were processed

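RNA of 9 pools, 3 each of Col, siFIE and clf swn, was hybridised to 1-colour NimbleGen arrays with 60-mer probes of TAIR version 6 genes. The intensity of single probes, not normalized, was deposited as NimbleScan 2.4.31 wrote it, and an RMA intensity per gene on a linear scale. What ran RMA, and how, is not given in the sources used here. Median probe intensity was 1213 to 2370.1 per array, 0 to 15 probes were saturated, and none of these belonged to a member.

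For 30361 genes, log2 RMA values entered limma 3.58.1 (R 4.3.3; 3 group means, 9 arrays, two-sided) and p-values were adjusted by Benjamini-Hochberg over all genes. The methods of the study name 2-fold and 95% confidence. The labels do not say whether pools were grown separately, so p-values measure the spread between pools. Of the IDs 29976 matched TAIR10.1, used for names. The fit was tested on simulated data.

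The members and gene lists (105 genes) were chosen with earlier results of these data known. Named are all members, the 5 genes most like HSFA9, and up to 4 genes per list with the smallest p in clf swn, plus those needed to spell out counts of 5 or fewer. HSFA2, MBF1C, HSP70T-2 and HSP90.1 were named after their values were seen, as were CRU2, CRU3, CRA1 and the pool order. Alternatives numbered 20, of which 9 left out 1 array each. The others were probe intensities with normexp (offset 50) and quantile or median scaling, or without background correction, quantile-normalized RMA values, the RMA values of the series table, a 25th percentile filter, only the 2 groups compared, unadjusted p, no fold threshold, a per-gene unadjusted test of 2 groups as the methods may mean, and replicate number as a block. Slide was not used as a block, and its part in the differences was not tested. Promoter motifs and protein identities were not analysed here.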

Additional observations from a re-analysis of the deposited data

Results flagged for a closer look

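The results listed here are among those in which the change from Col differed between the mutants. The test was the limma comparison of clf swn with siFIE on all 9 arrays. Differences are clf swn minus siFIE on the log2 scale, and every one has an adjusted p under 0.05, of at most 0.042.

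Of the 9 members 6 differed, all higher in clf swn, where 20.9% of all genes were by the same adjusted p. They were HSP17.6A by 2.34, HSFA9 by 2.204, HSP17.6II by 1.42, HSP17.4 by 1.18, HSP101 by 0.97 and HSP17.8 by 0.75. The exceptions were HSP17.6C, HSP18.2 and HSP21.

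Of the other heat stress transcription factors named, HSFA6A (2.01), HSFA6B (1.79) and HSFA1E (1.60) were higher in clf swn, and HSFA3 (-1.25) and HSF A4A (-1.04) were lower. Of the other small heat shock proteins named, ATHSP22.0 (1.50) and HSP23.6-MITO (0.49) were higher and AT4G21870 (-2.40) and AT2G19310 (-0.67) were lower. Of the 15 large chaperones outside the members, 6 were higher by adjusted p. They were HSP70T-2 (1.19), Hsp70b (1.04), Hsp70-2 (0.97), HSP70 (0.93), HSP90.1 (0.68) and CLPB4 (0.36). Among the remaining heat response genes named, DREB2A (2.28) and HSA32 (0.80) were higher and GolS1 (-0.85) was lower.

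The seed maturation regulators named were all higher in clf swn, NF-YB6 by 7.08, DPBF2 by 6.39, ABI3 by 6.15, ABI4 by 5.62, ABI5 by 2.91 and LEC2 by 1.48. All 8 seed and embryo markers were higher in clf swn by adjusted p, and the storage protein gene CRU2 had the largest difference, 9.78. The reference gene UBQ10 differed by 0.87.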

How the results depend on the processing

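Members called higher numbered 6 in clf swn against Col and 4 in clf swn against siFIE from RMA, 4 and 3 from probe intensities with normexp and quantile normalization, and 2 and 2 from probe intensities without background correction, with HSFA9 at 0.90, HSP17.4 at 0.61, HSP17.8 at 0.78 and HSP18.2 at 1.00 on the log2 scale in clf swn against Col in the last of these. With no fold threshold, 2 members were called in siFIE. Over all genes the main calls were 2666 higher and 3896 lower in clf swn, 1370 and 968 in siFIE, and 2072 and 3349 in clf swn against siFIE. Without background correction they were 1564 and 2344, 675 and 439, and 1165 and 1849. With no fold threshold they were 7336 and 6887, 3102 and 3047, and 6332 and 6281. In siFIE 609 were lower with normexp and quantile normalization, and 863 were higher and 640 lower with normexp and median scaling.

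HSP17.4 and HSP17.8 missed 2-fold in clf swn under all 3 settings from probe intensities, at log2 0.61 to 0.77 and 0.78 to 0.90. Leaving out 1 array gave 0.98 to 1.39 for HSP17.4 and 0.96 to 1.25 for HSP17.8. HSP101 in clf swn against siFIE passed 2-fold with normexp and median scaling (1.14), without the first siFIE pool and without the second clf swn pool (1.08 each). HSFA9 and HSP21 gave no value under the 25th percentile filter, which removes both.

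Only differences that were not called changed sign. They were HSP21 in clf swn (-0.15 without the third clf swn pool, and up to 0.62 with another array left out), HSP17.4 in siFIE (0.08 with normexp and quantile, 0.11 without background correction, 0.02 with normexp and median scaling, and -0.20 to 0.21 with 1 array left out), HSFA9 in siFIE (-0.03 with normexp and median scaling, and down to -0.12 with 1 array left out) and HSP17.6A in siFIE (-0.01 to 0.31 with 1 array left out). The causes were not tested.

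Over all genes, same-numbered pools did not deviate together (r of -0.164 to 0.169 between genotypes), so the numbers were not taken to pair them. With the replicate block 6, 1 and 4 members were called in the 3 comparisons, as without it. Without the block 8.78%, 4.51% and 6.82% of all genes were called higher. Over the 8 heat shock protein genes alone the second pool was lowest in 5, 6 and 7 genes of Col, siFIE and clf swn. Signal near the floor of the array limits HSFA9 and HSP21.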
